A study of Mus musculus with 37 samples.

Results

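The chromobox genes Cbx2, Cbx6, Cbx7 and Cbx8 and the polyhomeotic genes Phc1, Phc2 and Phc3 encode subunits of canonical Polycomb repressive complex 1 (PRC1). These 7 genes were chosen by symbol, and all 7 are among the 55401 genes listed in both deposited expression tables. Their RNA levels were followed across 5 stages from the oocyte to the late 2-cell embryo and across 3 lineages of the embryonic day 6.5 embryo, in controls and after deletion of Bap1 in the oocyte. The study asked how loss of BAP1 changes the transcriptome of oocytes and early embryos.

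Canonical PRC1 is built on a RING protein and a PCGF protein, to which a CBX and a PHC subunit are added. The chromodomain of a CBX protein binds histone H3 carrying the trimethyl-lysine mark laid down by Polycomb repressive complex 2 (PRC2), and so brings PRC1 to marked chromatin. The PHC proteins carry a SAM domain that joins complexes into chains and is known for clustering and compacting Polycomb-bound chromatin. The RING subunit places monoubiquitin on histone H2A, and BAP1 is the enzyme that removes it. Oocytes and early embryos are known for Polycomb marks that pass from egg to embryo, where most maternal RNA is replaced during the 2-cell stage.

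All oocytes and eggs, of both genotypes, came from females with the floxed Bap1 allele (Bap1 flox/flox). Knockout oocytes also carried iCre driven by the Gdf9 promoter, which is active in growing oocytes, whereas controls lacked iCre. Fully grown oocytes (FGO) and MII eggs (MII) were taken directly. Late 1-cell (L1C), early 2-cell (E2C) and late 2-cell (L2C) embryos came from control or knockout eggs and wild-type B6 sperm, and epiblast (EPI), visceral endoderm (VE) and extraembryonic ectoderm (EXE) of embryonic day 6.5 came from eggs of the same genotypes and PWK sperm. Knockout embryos were therefore maternal knockouts that had received a wild-type paternal allele. Culture was in KSOM medium, per the labels. There were 2 control and 3 knockout libraries at FGO, MII, L1C and L2C, 3 of each at E2C, 2 of each in EPI and VE, and 1 control and 2 knockout libraries in EXE. The labels do not say whether libraries of a group came from separate females, so p-values measure the spread between libraries, which may be technical.

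The 26 early libraries were made from total RNA and the 11 lineage libraries from poly(A) RNA. The deposited unit was FPKM, fragments per kilobase of gene per scaled total, so levels can be set against each other between genes within a table but not between the tables. FPKM summed to between 300668 and 430784 per total RNA library and between 593705 and 704522 per poly(A) library, and the read depth is unknown. Bap1 itself measured 16.3 to 29.9 FPKM in the control libraries and 3.76 to 11.7 FPKM in the knockout libraries of the 5 early stages, without overlap at any stage. In the lineages it measured 18.3 to 33.8 FPKM in knockouts and at most 22.6 FPKM in controls. Oocyte markers such as Gdf9 and Bmp15 marked the early libraries, the 6 epiblast markers all reached 1 FPKM in EPI, the 7 visceral endoderm markers in VE and the 5 extraembryonic ectoderm markers in EXE. The epiblast markers, which summed to 1170 to 1860 FPKM in EPI, all reached 1 FPKM in EXE too (498 to 604 FPKM), mostly from Utf1, and 3 of 6 did in VE (141 to 231 FPKM). The 4 parietal endoderm markers, mostly Sparc, summed to 451 to 674 FPKM in VE and to at most 64.9 FPKM in EPI and EXE. Differences were tested with limma on log2(FPKM + 1) over all genes that reached 1 FPKM in at least 2 libraries, and a difference was called at an adjusted p under 0.05. Of the 7 genes, 5 passed this filter at the early stages (Cbx2, Cbx7, Phc1, Phc2, Phc3) and 6 at embryonic day 6.5 (all but Phc3).

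In the early stages Cbx2 and Phc2 were the major transcripts of their families. Cbx2 (ENSMUSG00000025577.7, chromosome 11, 119022962 to 119031270, plus strand, GRCm38), the subunit best known for compacting nucleosomes, measured 23.0 to 35.4 FPKM over all 26 early libraries, with a median of 27.1 FPKM. It made up 94.0% ± 3.1 (SD, n = 2) of the summed FPKM of the 4 CBX genes in control FGO and 83.8% ± 2.5 (SD, n = 2) in control L2C. Cbx7 supplied most of the remainder. Cbx6 (ENSMUSG00000089715.12, chromosome 15, 79823896 to 79834688, minus strand) reached 0.388 FPKM at most and Cbx8 (ENSMUSG00000025578.9, chromosome 11, 119036305 to 119040969, minus strand) 0.724 FPKM. Neither reached 1 FPKM in any of the 26 early libraries, so neither was tested there. Cbx8 lies near Cbx2, on the opposite strand.

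**Figure D1:**
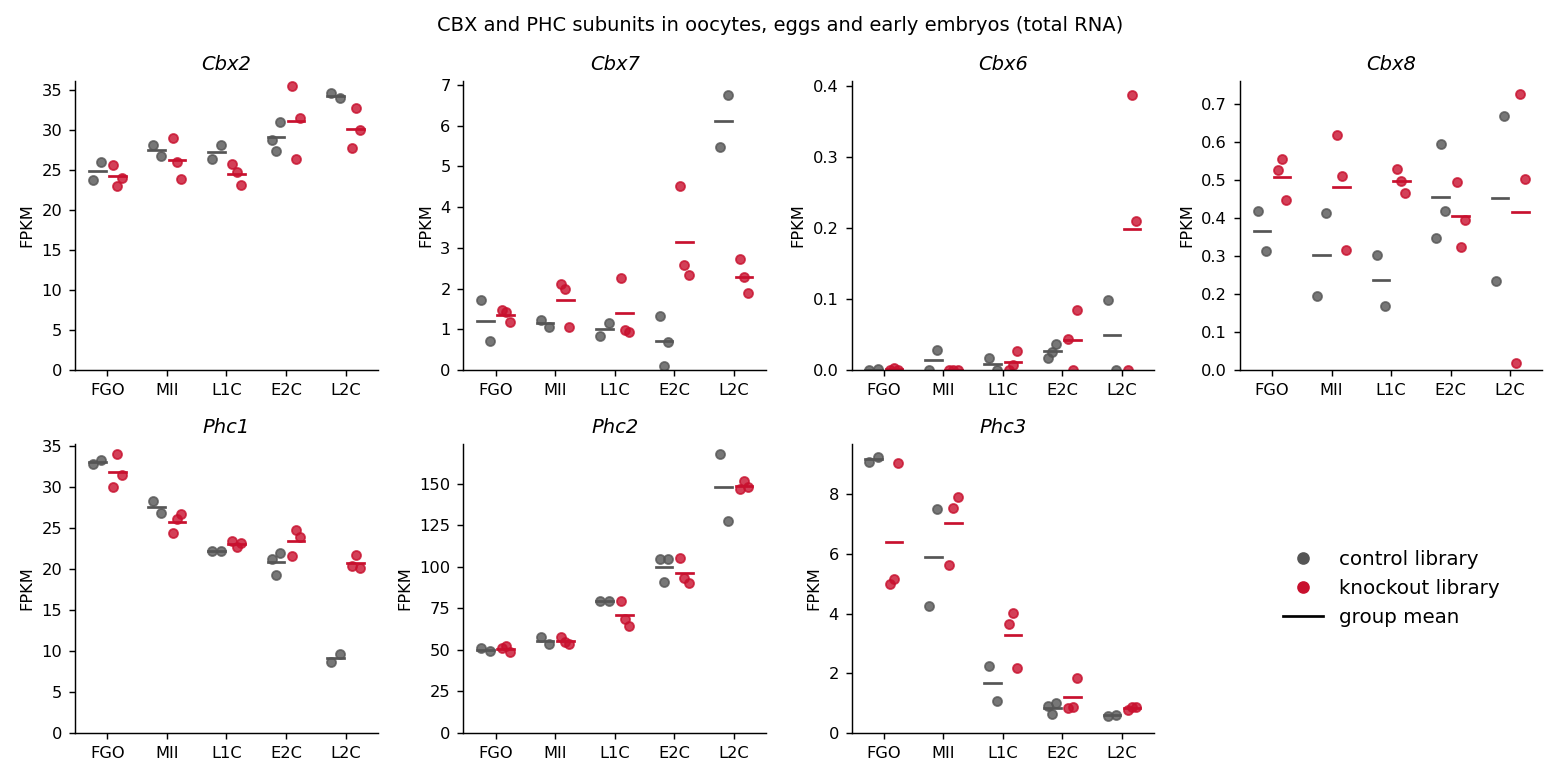
FPKM (linear axis from 0, scaled per gene) of the 7 genes in each of the 26 total RNA libraries, by stage, with control libraries in grey, knockout libraries in red and group means as lines. Phc1 is at 8.72 and 9.69 FPKM in the 2 control L2C libraries and at or above 20.2 FPKM in the 3 knockout L2C libraries, while Cbx7 shows the opposite order there.

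Phc2 (ENSMUSG00000028796.17, chromosome 4, 128654702 to 128752881, plus strand) was the most abundant PHC gene at each of the 5 early stages, and it rose from MII to L2C. In controls it measured 51.0 and 49.3 FPKM in FGO, 57.7 and 53.5 FPKM in MII, 79.7 and 79.6 FPKM in L1C, 105, 91.1 and 105 FPKM in E2C, and 168 and 128 FPKM in L2C. In knockouts it measured 50.9, 52.7 and 48.6 FPKM in FGO, 58.1, 55.0 and 53.7 FPKM in MII, 79.6, 68.9 and 64.7 FPKM in L1C, 106, 93.5 and 90.1 FPKM in E2C, and 147, 152 and 148 FPKM in L2C. Each stage lay above the one before without overlap, in both genotypes, although the step from FGO to MII (0.14 in controls, adjusted p 0.378, and 0.13 in knockouts, adjusted p 0.208) did not pass. The step from MII to L1C was 0.51 (SE 0.08, adjusted p 6.52e-05) on the log2 scale in controls and 0.34 (SE 0.07, adjusted p 7.92e-04) in knockouts. The step from E2C to L2C was 0.55 (SE 0.13, adjusted p 0.00173) in controls and 0.62 (SE 0.12, adjusted p 2.50e-04) in knockouts. The control call was lost without L2C control replicate 1 (0.35, adjusted p 0.0708) and under median centring (0.30, adjusted p 0.0612). The step between them, from L1C to E2C, was 0.32 (adjusted p 0.0205) in controls and 0.44 (adjusted p 0.00204) in knockouts. The control call from L1C to E2C was lost with libraries scaled to equal sums (0.14, adjusted p 0.378) and without L1C control replicate 1 or 2 or E2C control replicate 1 or 3 (0.29 to 0.33, adjusted p 0.0519 to 0.0968).

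Phc3 (ENSMUSG00000037652.15, chromosome 3, 30899371 to 30969415, minus strand) went the other way. In controls it measured 9.07 and 9.25 FPKM in FGO, 4.26 and 7.51 FPKM in MII, 2.26 and 1.07 FPKM in L1C, 0.912, 0.641 and 0.993 FPKM in E2C and 0.555 and 0.614 FPKM in L2C. In knockouts it measured 5.00, 5.15 and 9.03 FPKM in FGO, 5.63, 7.54 and 7.90 FPKM in MII, 3.66, 4.03 and 2.18 FPKM in L1C, 0.850, 0.880 and 1.84 FPKM in E2C and 0.756, 0.863 and 0.872 FPKM in L2C. The fall from MII to L1C passed in both genotypes, at -1.36 (SE 0.26, adjusted p 4.32e-04) in controls and -0.92 (SE 0.21, adjusted p 0.00362) in knockouts. Phc3 also fell from L1C to E2C in knockouts (-0.97, SE 0.34, adjusted p 0.0248), a call lost without L1C knockout replicate 1 or 2 or E2C knockout replicate 1 or 2 (adjusted p 0.0537 to 0.117), with no filter on low values (0.0711) and under median centring (0.0640). The corresponding control step of -0.50 did not pass (adjusted p 0.270), and the difference between the genotypes in that step did not either (-0.48, SE 0.49, adjusted p 0.720). By L2C, Phc3 made up 0.378% ± 0.093 (SD, n = 2) of the summed PHC FPKM in controls, against 9.91% ± 0.22 (SD, n = 2) in FGO.

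The bases before the RefSeq start of Phc2 and Phc3 are shown because from MII to L1C Phc2 rose and Phc3 fell in both genotypes. Each window holds the 250 bases before the start annotated by RefSeq on GRCm38.p6, which is chr4:128654452-128654701 on the plus strand for the first of 3 Phc2 starts and chr3:30969416-30969665 on the minus strand for Phc3. Capitals mark every match, on either strand, to 6 motifs searched: TATAAA (the TATA box), CCAAT (bound by NF-Y), GGGCGG (bound by SP factors), CACGTG (the E-box), TAATCC (bound by OTX-type homeodomain proteins) and AAGGTCA (bound by orphan nuclear receptors). No matches overlapped one another in the windows shown.
Phc2: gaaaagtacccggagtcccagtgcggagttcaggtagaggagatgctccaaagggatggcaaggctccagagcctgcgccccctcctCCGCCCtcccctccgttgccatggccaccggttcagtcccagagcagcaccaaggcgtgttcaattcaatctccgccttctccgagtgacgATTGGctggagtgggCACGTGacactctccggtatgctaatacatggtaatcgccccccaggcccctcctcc
Phc3: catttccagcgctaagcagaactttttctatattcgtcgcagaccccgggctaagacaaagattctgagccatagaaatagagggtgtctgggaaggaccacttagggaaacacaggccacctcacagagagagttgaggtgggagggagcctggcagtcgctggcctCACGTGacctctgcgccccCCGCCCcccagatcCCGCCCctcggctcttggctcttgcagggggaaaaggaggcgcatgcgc
These 2 windows hold 1 CACGTG each, which 6.02% of 32851 RefSeq promoter windows of this length hold. Phc2 has 1 GGGCGG and Phc3 has 2, a motif found in 32.7% of windows, and Phc2 also has 1 CCAAT, found in 33.8%. They hold 13 and 12 CpG dinucleotides, against a median of 6 over all windows. The windows of the other 2 Phc2 starts hold no CACGTG, with 1 and 34 CpG dinucleotides and 0 and 6 GGGCGG. FPKM per gene does not show which start was used.

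Phc1 (ENSMUSG00000040669.14, chromosome 6, 122317731 to 122340561, minus strand) was highest in FGO, and its genotypes stood apart in L2C. In controls it measured 32.8 and 33.3 FPKM in FGO, 28.3 and 26.8 FPKM in MII, 22.3 and 22.3 FPKM in L1C and 21.2, 19.3 and 21.9 FPKM in E2C. In knockouts it measured 30.0, 34.1 and 31.5 FPKM in FGO, 24.4, 26.2 and 26.7 FPKM in MII, 23.4, 22.8 and 23.2 FPKM in L1C and 21.6, 24.8 and 23.9 FPKM in E2C. At L2C the 2 control libraries were at 8.72 and 9.69 FPKM, and the 3 knockout libraries were at 20.4, 21.8 and 20.2 FPKM. The knockout L2C libraries thus lay within the range of the control E2C libraries, and the control L2C libraries lay below every other early library.

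The fall of Phc1 from E2C to L2C in controls was -1.10 on the log2 scale (SE 0.11, adjusted p 3.01e-08). In knockouts the same step was -0.16 (SE 0.10, adjusted p 0.185). The difference between the genotypes at L2C was 1.09 (SE 0.10, 95% interval 0.89 to 1.30, adjusted p 6.94e-08), a 2.26-fold ratio of mean FPKM, and the test of the change in the genotype difference from E2C to L2C gave 0.93 (SE 0.15, adjusted p 1.24e-04). Both calls held under each of the alternative settings and with each library left out, with values of 1.03 to 1.28 for the difference at L2C. Of 15184 genes tested, 661 (4.35%) were higher in knockout L2C by at least as much as Phc1. At FGO, MII, L1C and E2C the Phc1 difference lay between -0.09 and 0.16 and did not pass.

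Transcripts of the 2-cell embryo and of the oocyte were also higher in knockout L2C, although the 2-cell markers did not follow Phc1 over the stages. The 6 markers of the 2-cell embryo, among them Zfp352 and Zscan4d, summed to 127 to 134 FPKM in control L2C and 361 to 455 FPKM in knockout L2C, after 225 to 299 FPKM in control E2C and 98.0 to 201 FPKM in knockout E2C. The 6 oocyte markers, all of which reached 1 FPKM in each early group, summed to 441 to 463 FPKM in control L2C and 723 to 851 FPKM in knockout L2C, with none at 0. In E2C they summed to 814 to 1150 FPKM in controls and 794 to 987 FPKM in knockouts. Their part in the Phc1 result was not tested.

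Among the 5 genes tested, the knockout difference passed for 0 genes in FGO, MII and L1C, where 13.9%, 16.8% and 17.6% of all genes tested passed. It passed for 1 gene in E2C, where 13.5% of all genes passed, and for 2 genes in L2C, where 34.2% did. For a set of 5 genes these counts are near the background. The count of genes passing an unadjusted p under 0.05 was 4079 in FGO, 4226 in MII and 4436 in L1C.

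**Figure D2:**
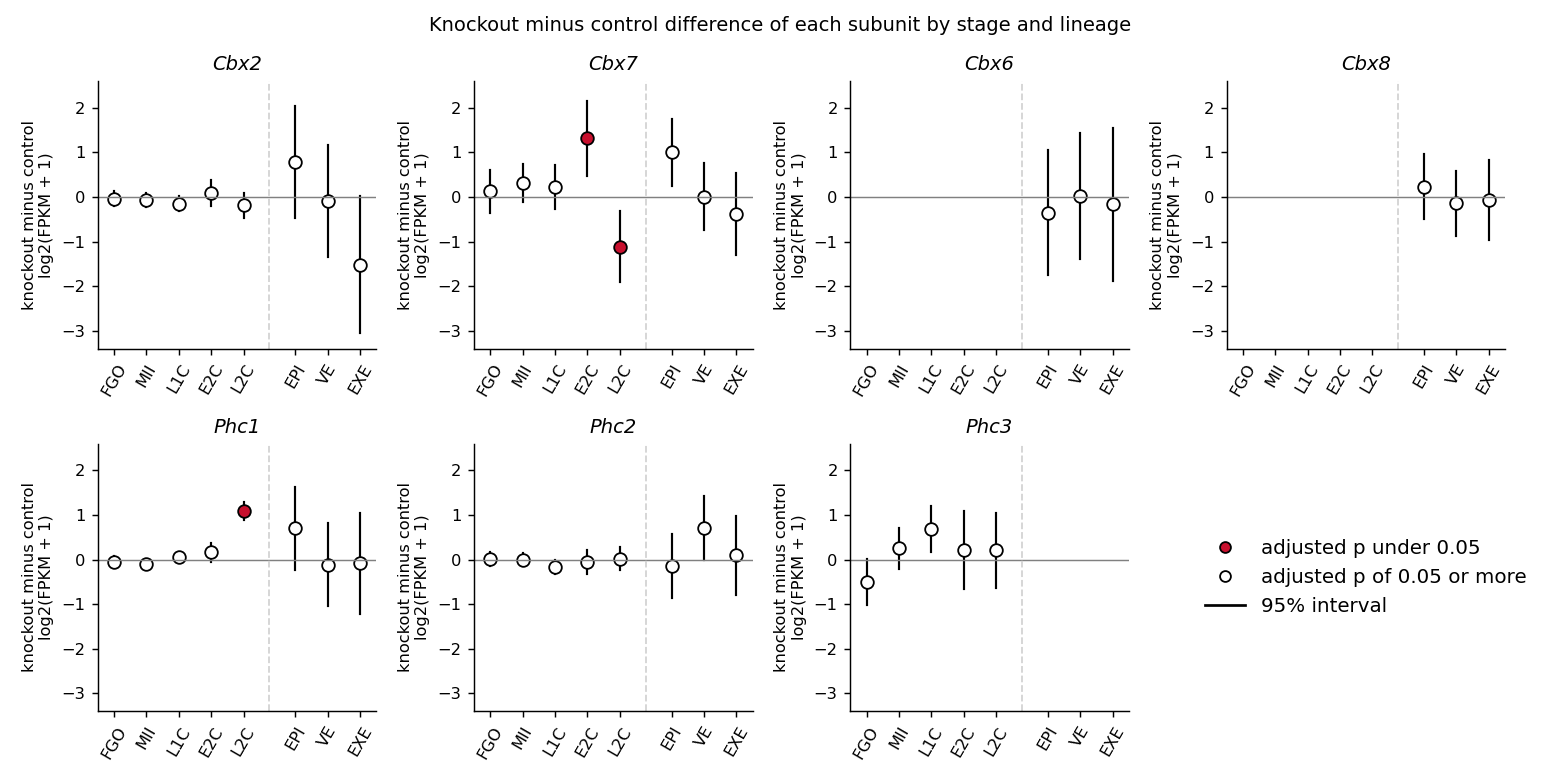
Knockout minus control difference on the log2(FPKM + 1) scale with its 95% interval for each gene, by stage (left of the dashed line, total RNA) and lineage (right, poly(A) RNA), filled red where the adjusted p was under 0.05. Only Phc1 at L2C (1.09) and Cbx7 at E2C (1.31) and L2C (-1.11) are filled. Cbx6 and Cbx8 were not tested at the early stages, nor Phc3 in the lineages.

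Cbx7 (ENSMUSG00000053411.16, chromosome 15, 79915807 to 79971119, minus strand), the main CBX subunit of mouse embryonic stem cells, was the other gene whose genotype difference passed. It was low through the oocyte and 1-cell stages, between 0.717 and 2.26 FPKM in FGO, MII and L1C over both genotypes. In E2C the controls measured 1.33, 0.0963 and 0.685 FPKM and the knockouts 4.52, 2.58 and 2.33 FPKM. In L2C the order was reversed, with controls at 5.48 and 6.76 FPKM and knockouts at 2.74, 2.28 and 1.88 FPKM. The groups did not overlap at either stage.

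The Cbx7 difference was 1.31 (SE 0.40, 95% interval 0.47 to 2.15, adjusted p 0.0343) in E2C and -1.11 (SE 0.38, 95% interval -1.91 to -0.31, adjusted p 0.0286) in L2C. In the E2C comparison 29 of 15184 genes (0.191%) were higher by at least as much. Cbx7 rose from E2C to L2C in controls by 2.12 (SE 0.41, adjusted p 1.74e-04), whereas the knockout step was -0.30 (SE 0.37, adjusted p 0.557). The change of the genotype difference from E2C to L2C was -2.42 (SE 0.56, adjusted p 0.00370), and 26 genes (0.171%) changed downward by at least as much. This change passed under each alternative that tested it, with values of -3.75 to -2.14, whereas the 2 differences at single stages were less stable. The E2C call was lost without E2C control replicate 2 (1.03, adjusted p 0.176), control replicate 3, or knockout replicate 1 or 2 (adjusted p 0.0614 to 0.138), and with no filter on low values (adjusted p 0.0770). The L2C call was lost without either control replicate or without knockout replicate 2 or 3 (adjusted p 0.0654 to 0.164), and also with the replicate number as a block (-1.02, adjusted p 0.0735), a pseudocount of 0.1 (adjusted p 0.111), no filter (0.235) or equal library sums (0.132). The 2-cell embryo markers given above were lower in knockout E2C and higher in knockout L2C, opposite to Cbx7 at both stages, and their part in these differences was not tested.

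The window of Cbx7 is shown because this CBX gene had a called genotype difference. Of the other CBX genes, only Cbx2 was tested at the early stages. Of the 250 bases before its RefSeq start, the first 128 bases, which lie in no annotated GENCODE exon, are printed, which is chr15:79932769-79932896 on the minus strand, with capitals as above.
Cbx7: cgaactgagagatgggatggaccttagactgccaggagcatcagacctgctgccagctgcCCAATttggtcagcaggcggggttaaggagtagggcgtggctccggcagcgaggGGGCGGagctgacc
These bases hold 1 CCAAT and 1 GGGCGG. The full 250-base window has 23 CpG dinucleotides, more than 86.7% of all windows. The GENCODE span of Cbx7 extends further upstream, to position 79971119. Of the 50-base exonic words of Cbx7, 0.76% are shared with Apobec3, whose exons overlap those of Cbx7 on the other strand. Whether the authors' counting used the strand is not given in the sources used here, so reads of the 2 genes may not be fully separated. The corresponding Phc1 window lies within a GENCODE exon of Phc1. It holds 1 TAATCC, found in 6.25% of windows, and no match to the other 5 motifs.

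Cbx2 did not pass for genotype at any early stage. Its differences lay between -0.18 in L2C and 0.09 in E2C, and the widest of the 5 intervals, that of E2C, ran from -0.21 to 0.38. In L2C the controls measured 34.6 and 33.9 FPKM and the knockouts 27.7, 32.7 and 29.9 FPKM, without overlap, with a difference of -0.18 (95% interval -0.46 to 0.10, adjusted p 0.321). In L1C the controls at 26.3 and 28.1 FPKM also lay above the knockouts at 25.7, 24.7 and 23.1 FPKM (-0.15, adjusted p 0.252). From L1C to E2C, Cbx2 rose in knockouts by 0.33 (SE 0.11, adjusted p 0.0247), and this call was lost without L1C knockout replicate 3 or E2C knockout replicate 1 or 3 (adjusted p 0.0596 to 0.202) and with libraries scaled to equal sums (0.21, adjusted p 0.160). The control step of 0.09 did not pass (adjusted p 0.562), nor did the difference between the genotypes in that step (0.23, SE 0.16, adjusted p 0.548). The Phc2 differences lay between -0.17 and 0.02 and did not pass, the lowest being that of L1C (95% interval -0.33 to -0.01, adjusted p 0.155). The Phc3 difference was 0.70 in L1C (SE 0.25, adjusted p 0.0572) and -0.50 in FGO (SE 0.24, adjusted p 0.192), and neither passed. Without L1C control replicate 1 or L1C knockout replicate 3 the L1C difference of Phc3 passed (1.02, adjusted p 0.0344, and 0.90, adjusted p 0.0171). Without L1C knockout replicate 1 the L1C difference of Phc2 passed (-0.25, adjusted p 0.0167).

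Stage steps passed in 8 of 20 tests in controls and in 7 of 20 in knockouts. By step, 1, 3, 1 and 3 of the 5 genes passed in controls, against 5.39%, 25.4%, 47.2% and 51.7% of all genes from FGO to MII, MII to L1C, L1C to E2C and E2C to L2C. In knockouts 1, 2, 3 and 1 genes passed, against 13.8%, 16.4%, 41.7% and 45.5%. Phc1 fell from FGO to MII in controls (-0.26, adjusted p 0.0179) and in knockouts (-0.30, adjusted p 4.76e-04). The control call was lost without any 1 of the 4 control FGO and MII libraries (adjusted p 0.0506 to 0.150), and with median centring (0.137), no weights (0.291) or the stages compared alone (0.118). Phc1 fell again from MII to L1C in controls (-0.29, adjusted p 0.00161), and the knockout step was -0.15 (adjusted p 0.0551). Under median centring the control step was -0.12 (adjusted p 0.233) and was not called. The change of the genotype difference passed for 0 of the 5 genes from FGO to MII, MII to L1C and L1C to E2C, where 0%, 0.198% and 3.35% of all genes passed, and for 2, Phc1 and Cbx7, from E2C to L2C, where 18.9% did. For the step from FGO to MII, 1678 genes had an unadjusted p under 0.05.

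Over these steps the makeup of the PHC family shifted from a mixture to mostly Phc2. In control FGO, Phc1 made up 35.8% ± 0.64 (SD, n = 2) and Phc2 54.3% ± 0.86 of the summed PHC FPKM, and in control L2C they made up 5.96% ± 1.5 and 93.7% ± 1.6. In knockout L2C the Phc1 share was 12.2% ± 0.26 (SD, n = 3), with 11.9% as its lowest value and 7.01% as the highest control value. The summed PHC FPKM in L2C was 158 ± 28 (SD, n = 2) in controls and 170 ± 3.5 (SD, n = 3) in knockouts, with overlap. Cbx7 made up 15.0% ± 2.0 (SD, n = 2) of the CBX sum in control L2C and 7.03% ± 1.7 (SD, n = 3) in knockout L2C, and in E2C 2.28% ± 2.0 (SD, n = 3) and 8.93% ± 2.2 (SD, n = 3). These shares were computed from the same values as the differences above and were not tested separately.

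**Figure D3:**
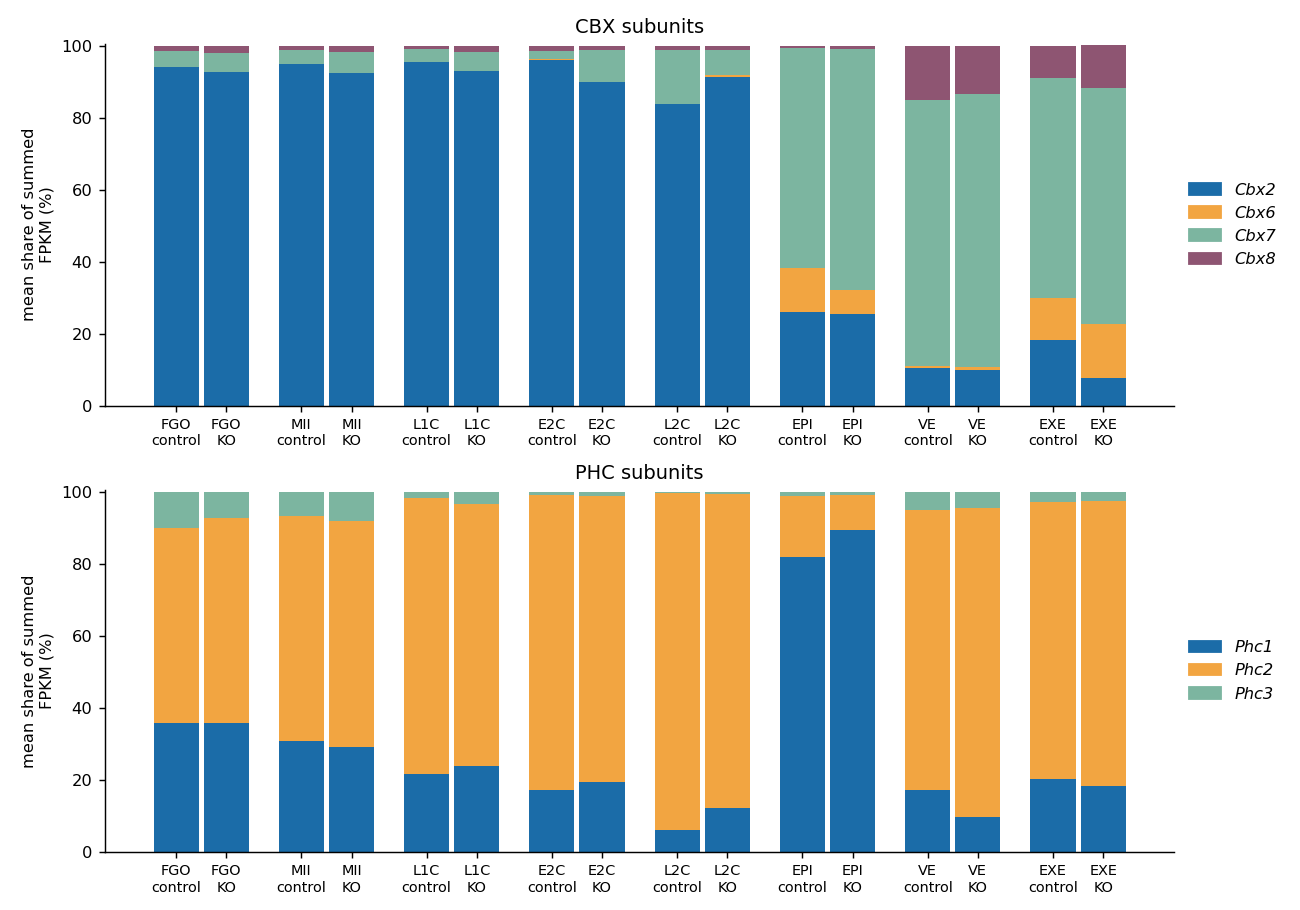
Mean share (percent, axis from 0) of each gene in the summed FPKM of the 4 CBX genes (top) and the 3 PHC genes (bottom), for each stage or lineage and genotype. Each bar is a group mean without error bars. Cbx2 holds 83.8% to 96.1% of the CBX sum in the early groups and 7.53% to 26.1% in the lineages, where Cbx7 holds 61.1% to 75.8%, and Phc1 exceeds Phc2 in EPI alone among these groups. Early and lineage groups come from different library types.

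For each gene whose 10 early group means spanned at least 1 on the log2 scale, the genes with the most similar pattern were searched among 8823 genes of equal span. Phc1 was most like Dad1, a subunit of the oligosaccharyltransferase (Pearson r 0.991 over 10 group means), and Olfr288 (r 0.974). Phc2 was most like Cdc42se2 (r 0.995) and Pnpla8 (r 0.994). Phc3 was most like Col6a5 (r 0.989) and Limd2 (r 0.987). Cbx7 was most like Slc25a47, a mitochondrial carrier, at a lower r of 0.946, and Fbxo27 (r 0.923). These correlations were chosen as the highest of many and are descriptions only. Cbx2 spanned 0.49 and was not searched.

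The partners of these subunits were also followed. Of 6 other canonical PRC1 genes (Ring1, Rnf2, Bmi1, Pcgf2, Scmh1, Scml2), 4 were tested at the early stages. In knockout L2C, where 17.0% of all genes passed as higher and 17.2% as lower, 1 was higher and 0 lower, with a median of 0.18 over the 4 against 0.03 over all genes tested. Scml2, which encodes a sex-comb-on-midleg family protein, rose from a mean of 51.8 to 82.8 FPKM (0.67, SE 0.17, adjusted p 0.00387). In knockout MII, Scml2 was higher (0.31, adjusted p 0.0211) and Rbbp7, a PRC2 histone-binding subunit, was lower (-0.21, adjusted p 0.0165). Rnf2, the catalytic RING subunit, was lower in knockout FGO (-0.24, adjusted p 0.0398) and L1C (-0.28, adjusted p 0.0143).

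Of the 6 PRC2 core genes, which encode the complex that lays down the mark CBX proteins read, 3 were higher and 0 lower in knockout L2C, with a median of 0.26. Eed rose from 30.2 to 61.8 FPKM (0.99, adjusted p 5.72e-04), and Ezh2, the methyltransferase, from 75.6 to 134 FPKM (0.82, adjusted p 5.97e-05). In controls both fell from E2C to L2C (Eed -1.50, Ezh2 -1.41). The 11 variant PRC1 genes, whose complexes lack CBX and PHC subunits, had 1 higher and 3 lower in knockout L2C, with a median of 0.0045. L3mbtl2 (-0.79, adjusted p 0.00687) and Bcorl1 (-0.75, adjusted p 5.95e-04) changed most. The 3 HP1 genes, chromobox genes whose products read a different methyl mark on H3, had 1 higher (Cbx1, 0.76) and 2 lower, of which Cbx5 changed most (-0.82, adjusted p 8.89e-04). In E2C, Kdm2b was higher by 0.77 (adjusted p 0.00444) and Cbx3 lower (-0.85, adjusted p 0.0167), and no other gene of these 4 lists passed. Cdkn2a, a known target of CBX7 and CBX8 in other cells, was lower in knockout MII at 0.103 against 0.924 FPKM (-0.80, adjusted p 0.00903). Cdkn2a did not pass at the other 4 early stages, and Cdkn2b was not tested there.

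At embryonic day 6.5 the families were made up differently, in libraries of another type, so levels are not compared with those above. Cbx7 was the highest of the 4 CBX genes in every lineage library, between 10.1 and 47.4 FPKM. Phc3 stayed between 0.121 and 0.863 FPKM and was not tested. In these dissected lineages, fewer cells of a type and less RNA per cell cannot be told apart.

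Phc1 was highest in the epiblast. It measured 61.1 and 26.3 FPKM in control EPI and 64.1 and 67.8 FPKM in knockout EPI. In EXE it measured 4.30 FPKM in the control and 3.63 and 4.42 FPKM in the knockouts, and in VE 1.26 and 1.85 FPKM in controls and 1.06 and 1.67 FPKM in knockouts. The 3 lineages did not overlap. Averaged over both genotypes, EPI lay above VE by 4.43 (SE 0.29, adjusted p 4.37e-06), and 31 of 13914 genes (0.223%) were higher in EPI by at least as much. EXE lay below EPI (-3.35, SE 0.33, adjusted p 1.10e-04). EXE lay above VE by 1.08 (SE 0.33, adjusted p 0.0412), a call lost with any 1 of the VE or knockout EXE libraries left out (adjusted p 0.0636 to 0.121) and with the replicate number as a block (0.123), no filter (0.0879), median centring (0.0503) or knockouts only (0.121). Control EPI replicate 2, the low Phc1 library, summed lower over the 6 epiblast markers (1170 FPKM) than the other EPI libraries (1710 to 1860 FPKM), and the part of this in its Phc1 level was not tested.

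**Figure D4:**
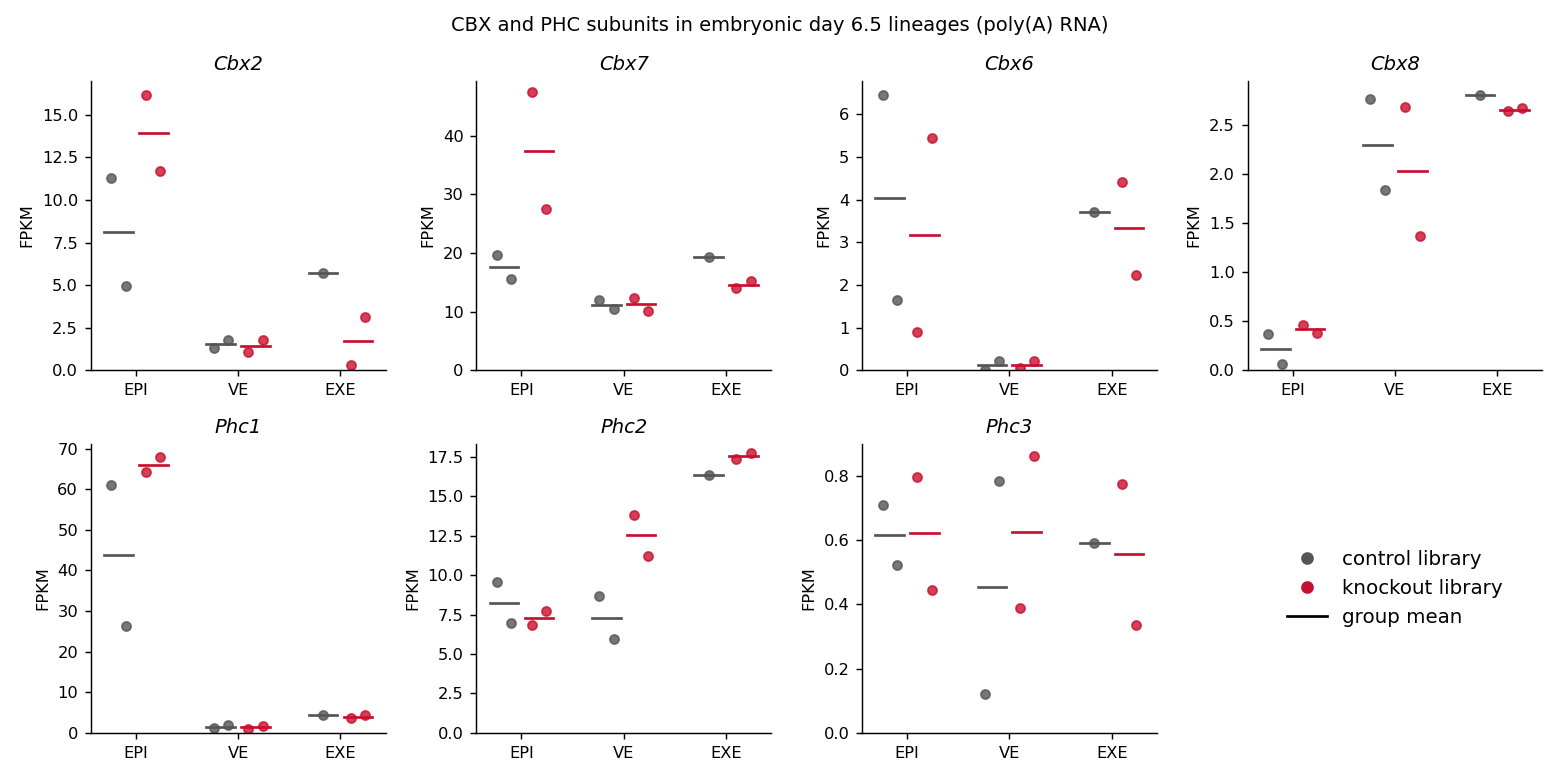
FPKM (linear axis from 0, scaled per gene) of the 7 genes in each of the 11 poly(A) libraries of embryonic day 6.5, by lineage, with control libraries in grey, knockout libraries in red and group means as lines. Phc1 lies between 26.3 and 67.8 FPKM in EPI and at or below 4.42 FPKM in VE and EXE, while Cbx8 is lowest in EPI and Cbx6 lowest in VE.

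The CBX genes also differed by lineage, with Cbx2, Cbx6 and Cbx7 higher in EPI than in VE and Cbx8 lower. Cbx2 measured 11.3 and 4.94 FPKM in control EPI and 16.2 and 11.7 FPKM in knockout EPI, against 1.05 to 1.79 FPKM in VE, and EPI lay above VE by 2.19 (SE 0.40, adjusted p 0.00193). Cbx7 measured 19.6 and 15.6 FPKM in control EPI and 47.4 and 27.4 FPKM in knockout EPI, against 10.1 to 12.3 FPKM in VE (1.11, SE 0.24, adjusted p 0.00486). Cbx6 was detected in EPI, at 0.885 to 6.46 FPKM, and EXE, at 2.24 to 4.42 FPKM, and lay between 0.00636 and 0.219 FPKM in VE. It passed the filter of 1 FPKM only through EPI and EXE libraries, the lineages where it was higher. Its difference was 1.82 (SE 0.44, adjusted p 0.00962) for EPI over VE and 1.99 (SE 0.49, adjusted p 0.0168) for EXE over VE. The EXE over VE call of Cbx6 was lost without VE control replicate 1, VE knockout replicate 1 or EXE knockout replicate 1 (adjusted p 0.0543 to 0.0597), and with the replicate block (0.0573), no filter (0.0846) or knockouts only (0.0764). The EPI over VE call was lost with no filter (adjusted p 0.0714) and in knockouts only (0.0878). Of its 50-base exonic words, 5.12% are shared with other annotated genes, and its exons overlap those of Npcd on the same strand, so its level is uncertain.

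Cbx8 was lower in EPI than in both extraembryonic lineages. It measured 0.0594 to 0.457 FPKM in EPI, 1.37 to 2.77 FPKM in VE and 2.65 to 2.82 FPKM in EXE, with EPI below the others without overlap. It passed the filter of 1 FPKM only through VE and EXE libraries, the lineages where it was higher. The difference was -1.25 (SE 0.23, adjusted p 0.00218) for EPI against VE and 1.51 (SE 0.26, adjusted p 0.00268) for EXE against EPI, while EXE and VE overlapped (0.27, adjusted p 0.530). Phc2 measured 16.4 FPKM in the EXE control and 17.4 and 17.7 FPKM in the EXE knockouts, 6.86 to 9.55 FPKM in EPI and 5.94 to 13.8 FPKM in VE. All EXE libraries lay above the others, and the difference passed against EPI (1.04, SE 0.25, adjusted p 0.0175) and not against VE (0.77, SE 0.25, adjusted p 0.0564). The call against EPI was lost without EPI control replicate 2 or either knockout EXE library (adjusted p 0.0541 to 0.0609) and with the replicate block (adjusted p 0.0689). Cbx2 was lower in EXE than in EPI (-1.50, SE 0.44, adjusted p 0.0405), a call lost without EPI control replicate 1, EPI knockout replicate 1 or EXE knockout replicate 1 (adjusted p 0.0855 to 0.117) and with the replicate block (0.0657), a pseudocount of 0.1 (0.0744) or no filter (0.125). The 2 lineages overlapped, with the EXE control at 5.70 FPKM above EPI control replicate 2 at 4.94 FPKM.

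In all, 5 of the 6 genes tested differed between EPI and VE, where 38.4% of 13914 genes did, 4 between EXE and EPI, where 19.6% did, and 2 between EXE and VE, where 22.6% did. Each of these counts includes Cbx6 or Cbx8, which were tested only through the lineages where they were higher. Among the 5 canonical partners tested, Bmi1, a PCGF subunit, lay lower in EPI than in VE (0.954 and 8.44 FPKM, -2.27, adjusted p 5.00e-04), and Pcgf2, its close relative, lay higher (26.2 and 10.1 FPKM, 1.25, adjusted p 0.0183). Scmh1 was higher in EXE than in VE (2.68, adjusted p 1.12e-04) and EPI (1.93, adjusted p 0.00110). Cdkn2a and Cdkn2b, the 2 genes of the Ink4/Arf locus, were each higher in EXE than in EPI, by 1.07 and 1.16 (adjusted p 0.00808 and 0.00823). Both were low, at most 1.59 and 1.57 FPKM in EXE against at most 0.111 and 0.226 FPKM in EPI. They reached 1 FPKM in EXE libraries alone and so entered the test only through the lineage where they were higher.

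The maternal genotype gave no call for any of the 6 genes in EPI, VE or EXE, where 0%, 0.00719% and 0% of all genes passed, with 469, 248 and 251 genes at an unadjusted p under 0.05. These comparisons have 1 or 2 libraries a group, and the intervals are correspondingly wide. Cbx7 was higher in both knockout EPI libraries than in both controls, by 1.00 (SE 0.33, 95% interval 0.25 to 1.75, unadjusted p 0.0144, adjusted p 1). Phc2 was higher in both knockout VE libraries, at 13.8 and 11.2 FPKM against 8.69 and 5.94 FPKM (0.72, 95% interval -0.0043 to 1.44, adjusted p 1). The 5 extraembryonic ectoderm markers, mostly Eomes, summed to 18.4 to 26.9 FPKM in these knockouts and 11.2 to 11.4 FPKM in the VE controls, 2 of them reaching 1 FPKM in each group. The 3 blood markers summed to 0.0259 and 22.5 FPKM in the knockouts and at most 0.200 FPKM in the controls. The part of either in the Phc2 values was not tested. Cbx2 in EXE measured 5.70 FPKM in the single control and 0.323 and 3.15 FPKM in the knockouts (-1.52, 95% interval -3.06 to 0.02, adjusted p 1). Pou5f1, 1 of the 6 epiblast markers, followed the same order in these 3 libraries, at 20.5, 0.127 and 13.8 FPKM. Utf1, another of the 6, did not, at 457 FPKM in the control and up to 482 FPKM in the knockouts. The sum of all 6, mostly Utf1, was 604 FPKM in the control and 498 to 577 FPKM in the knockouts. The markers thus did not share 1 order, and the part of epiblast cells in the Cbx2 values was not tested.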

How the data were processed

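RNA-seq values of 37 libraries were used, 26 from total RNA (SMART-Seq Stranded kit) and 11 from poly(A) RNA (SMART-Seq mRNA with Nextera XT), per the labels' protocols. The deposited values are FPKM, with 1 table from total RNA and another from poly(A) RNA. The file headers end in rpkm. Per the submitters' processing notes, Trim Galore 0.6.6, STAR 2.7.9, StringTie 2.1.7 and the build mm10 were used, with no roles given, and filters and the use of strand are not given in the sources used here. In 1 deposited column, that of EPI control replicate 1, a single gene is listed at -1e-06, so the column was recorded under the unit other, and with that value set to 0 it was used as FPKM like the rest. All columns matched a sample by name.

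Values were analysed as log2(FPKM + 1), for the 15184 early and 13914 lineage genes that reached 1 FPKM in 2 or more libraries. The pseudocount makes differences of low genes smaller than their ratios. Contrasts between groups were tested with limma 3.58.1 (R 4.3.3, trended eBayes), and p-values were adjusted by Benjamini-Hochberg across every gene of a contrast. The 26 early libraries shared 1 fit with precision weights per stage. The 11 lineage libraries shared an unweighted fit, where the lone EXE control is assumed to vary like the other groups. Lineage differences are the mean of the control and the knockout difference. The fits were tested on simulated data. At a log2 change of 1, the early genotype tests recovered 45 (E2C) to 64 (MII) of 67 changed genes. The lineage genotype tests recovered 3 of 67 in EPI, 2 of 67 in VE and 0 of 67 in EXE. False calls numbered 27 of 120 in EPI, 5 of 100 in VE and 1 of 64 in EXE. Missing lineage genotype calls therefore say little about changes of that size. Tables and plots were made with Python 3.11.15.

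Positions are from GENCODE M21 (GRCm38), in which 54349 of 55401 gene identifiers have the same version, and promoter windows are from RefSeq on GRCm38.p6. The read depth is unknown, so no counting intervals were computed and the number of libraries limits the precision.

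The 7 genes, the partner and marker lists, the tests and the alternatives were chosen with earlier results of these data known. An item of a partner list is not reported here and was left out of the list's counts. All 7 genes are named, although their differences that did not pass are not all given. Of each partner list, at most the 2 called genes that changed most per contrast are named. The 2 genes most like each of the 7 genes that was searched over the early group means are named too. Gene pairs, promoter windows and marker genes other than these were picked after their values were seen. Alternatives were a pseudocount of 0.1, no filter, a mean of at least 5 FPKM, scaling to equal library sums, centring on library medians, no trend, no weights, the stages compared alone, EPI and VE alone, lineage differences in knockouts only, the replicate number as a block, and leaving out each library.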

Additional observations from a re-analysis of the deposited data

Results flagged for a closer look

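Because no group had more than 3 libraries, single libraries were not screened as outliers. The genotype difference was compared between every pair of early stages and between every pair of lineages by an interaction contrast in limma, for each gene tested. Those that passed all involved L2C and concerned Phc1 and Cbx7. The Phc1 difference in L2C exceeded that in FGO by 1.15 (SE 0.12, adjusted p 5.44e-07), that in MII by 1.19 (SE 0.11, adjusted p 2.42e-07), that in L1C by 1.04 (SE 0.12, adjusted p 1.88e-06) and that in E2C by 0.93 (SE 0.15, adjusted p 1.24e-04). The corresponding Cbx7 values were -1.24 against FGO (SE 0.45, adjusted p 0.0408), -1.43 against MII (SE 0.44, adjusted p 0.0173), -1.34 against L1C (SE 0.45, adjusted p 0.0298) and -2.42 against E2C (SE 0.56, adjusted p 0.00370). Each is lower in L2C. All share the 5 L2C libraries and are not separate pieces of evidence. Between lineages, 0 genes passed for EXE against EPI or EXE against VE, and Cbx7 (-1.39) and Cbx2 (-2.30) in EXE against EPI had unadjusted p of 0.0267 and 0.0276.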

How the results depend on the processing

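The 40 gene differences recomputed were only those called or with an unadjusted p under 0.05, a choice that makes a turn of direction unlikely. Of their 597 alternative values, 513 kept direction and side of the threshold, 66 lost a call, 18 gained a call and 0 turned direction. Genotype differences called at the early stages numbered 3, and 1 with no filter or with a mean of at least 5 FPKM, which leaves out Cbx7. Called control steps fell from 8 to 5 under median centring, the called change of the genotype difference from 2 to 1 with a mean of at least 5 FPKM, and called lineage differences from 11 to 7 with a mean of at least 5 FPKM. Leaving out 1 library gave 2 to 4 early genotype calls, 7 to 8 control steps, 5 to 9 knockout steps, 2 changes of the genotype difference, 0 lineage genotype calls and 5 to 11 lineage differences (7 without EXE knockout replicate 1, and 5 without the EXE control, which leaves EPI against VE alone). Same-numbered libraries of both genotypes within a stage correlated between -0.0767 and 0.142 in their deviations, and within EPI and VE at 0.587 and 0.424, and the labels do not say that numbers pair libraries. With the replicate block, calls numbered 4, 8, 8, 2, 0 and 7 in the 6 families in the order of the leave-one-out counts. Same-numbered EPI and VE libraries correlated at -0.296 and -0.382, and a crossed block, added after seeing the data, gave 12 lineage calls. Phc3 in L1C passed with the block (0.90, adjusted p 0.00883), a pseudocount of 0.1, equal library sums or median centring. Cbx7 in L2C was lost with a pseudocount of 0.1 (adjusted p 0.111), no filter (0.235) or equal library sums (0.132), and Cbx7 in E2C with no filter (0.0770). The cause of these changes was not tested.

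Median centring moved the median of all genes from 0.02 to -0.23 for E2C to L2C and from -0.01 to 0.16 for MII to L1C in controls, and from 0 to 0.105 for the MII genotype difference. Relative to it, the control step of Phc1 from MII to L1C was -0.12 (adjusted p 0.233). Centring raised the share of higher calls among all genotype calls from 28.1% to 52.8% in FGO, 39.2% to 66.3% in MII, 43.1% to 53.3% in L1C and 46.0% to 60.7% in E2C, and equal library sums raised it from 49.8% to 64.0% in L2C. Without weights, calls over all genes numbered 903 in place of 2107 in FGO, 895 of 2545 in MII, 1176 of 2675 in L1C and 4407 of 2046 in E2C, and E2C alone gave 1193.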
